A study of Mus musculus with 18 samples.

Results

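Basement membranes are thin sheets of extracellular matrix that underlie epithelia and endothelia and separate early embryonic tissues. Laminins, trimers of an alpha, a beta and a gamma chain, assemble into a network at the cell surface; collagen IV forms a second network; nidogens and the proteoglycan perlecan connect the networks. In the early mouse embryo they are made in bulk by extraembryonic endoderm, and in embryoid bodies, aggregates of stem cells that form early embryonic tissues, an outer endoderm layer lays down a basement membrane on which the inner cells become an epithelium. The 9 genes described here encode the main parts of such a membrane: the collagen IV chains Col4a1 and Col4a2, the laminin chains Lama1, Lama5, Lamb1 and Lamc1, the nidogens Nid1 and Nid2, and Hspg2, which encodes perlecan. The rule that picked these 9 genes lists Ensembl IDs and no values, but they were chosen with earlier results of these data known. They are 9 of 51826 features, and all 9 were among the 13701 that passed the filter on low counts.

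Ribosome-protected fragments (footprints), the pieces of mRNA that ribosomes protect from digestion, were counted for each gene in the mouse embryonic stem cell line E14. The lines were Sam68 KO and Quaking KO, each lacking 1 RNA-binding protein of the STAR family, and WT cells; each line was taken at day 10 of embryoid body differentiation and at day 0 as stem cells. Each of the 6 groups had 3 libraries, described as biological triplicates, and all cells were treated with cycloheximide (100 µg/mL, 15 minutes) before lysis. Whether a KO line is 1 clone is not given in the sources used here. A footprint count reflects the amount of an mRNA and how often it is translated, which cannot be told apart here, nor can more cells of a type and more footprints per cell.

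Total counts per library ranged from 988210 to 10646768, and counts of the 9 genes from 214 to 80660. The 10 largest features took 60.2% to 70.4% of the counts in 3 day 10 libraries (Sam68 KO replicates 2 and 3 and WT replicate 3), against 24.6% to 30.2% in the other 6 and 7.01% to 21.3% at day 0. The 9 genes held 0.939% to 3.62% of all counts at day 10, against 0.547% to 0.954% at day 0. Values below are CPM, that is counts over each library's effective size (edgeR's TMM scaling), which reduces the weight of such dominant features. Whether libraries of 2 groups overlap is given below as description only, since the share of all features without overlap was not computed. By the pool names in the labels, MIX_1 contains the day 0 libraries of Quaking KO and WT, MIX_2 those of Sam68 KO at day 0 together with WT at day 10, and MIX_3 the day 10 libraries of both KO lines. Only Quaking KO against WT at day 0 and Sam68 KO against Quaking KO at day 10 lie within a pool; elsewhere pool and group cannot be told apart. The files pair no ID with a gene symbol, so neither the knocked-out genes nor markers of the labelled cell type were examined here.

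Collagen IV had the largest changes with differentiation of the 9 genes in each line. Col4a1 and Col4a2 encode the chains of the most widespread collagen IV and lie head to head on mouse chromosome 8 (GRCm38.p6, RefSeq), Col4a1 (ENSMUSG00000031502) at chr8:11198423-11312889 on the minus strand and Col4a2 (ENSMUSG00000031503) at chr8:11312805-11449287 on the plus strand, the annotated genes overlapping by 85 bases; whether strand was used in counting is not given in the sources used here, so reads from those bases could go to either gene. The starts on which the RefSeq promoter windows are set, 11312826 for Col4a1 and 11312805 for Col4a2, are 21 bases apart (the Col4a1 start lies inside the annotated gene). The windows, 250 bases before to 50 after each start, share 78 bases. Both windows are shown because these genes moved together in every comparison below; each is 5′ to 3′ on its gene's own strand, and capitals mark the shared bases, which are reverse complements of each other:
Col4a1, chr8:11312777-11313076, minus strand: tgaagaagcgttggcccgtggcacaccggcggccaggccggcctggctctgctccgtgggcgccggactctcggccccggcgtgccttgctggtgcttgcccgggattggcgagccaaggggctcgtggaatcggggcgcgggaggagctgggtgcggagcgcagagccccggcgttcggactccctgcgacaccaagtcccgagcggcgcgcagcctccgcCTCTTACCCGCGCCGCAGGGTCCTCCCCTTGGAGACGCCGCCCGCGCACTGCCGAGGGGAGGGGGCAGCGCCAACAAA
Col4a2, chr8:11312555-11312854, plus strand: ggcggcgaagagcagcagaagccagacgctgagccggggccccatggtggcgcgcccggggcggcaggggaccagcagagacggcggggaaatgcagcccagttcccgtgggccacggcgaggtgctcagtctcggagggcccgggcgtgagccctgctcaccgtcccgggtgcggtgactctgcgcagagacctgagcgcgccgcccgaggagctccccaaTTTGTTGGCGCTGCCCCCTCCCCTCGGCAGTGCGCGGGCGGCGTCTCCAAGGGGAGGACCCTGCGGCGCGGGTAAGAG

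Col4a1 measured 12094, 11364 and 9908 CPM in WT embryoid bodies, against 216, 234 and 234 CPM in WT stem cells. Every day 10 library lay far above every day 0 library, 48.8 times as high in the fit (log2 fold change 5.61, SE 0.23, edgeR adjusted p = 1.70e-13). Col4a2 measured 7109.9, 6708 and 6029 CPM at day 10, against 110.4, 131 and 121 CPM at day 0 in WT (54.8-fold, log2 fold change 5.78, SE 0.21, edgeR adjusted p = 6.55e-16). Both genes also rose in the KO lines, over narrower ranges. In Quaking KO, Col4a1 reached 2611, 2581 and 2193 CPM at day 10, against 186, 265 and 157 CPM at day 0 (12.2-fold, edgeR adjusted p = 2.91e-11), and the Col4a2 fold was 15.2. In Sam68 KO, Col4a1 reached 8910.2, 8992 and 6230.1 CPM at day 10, against 438, 631 and 743 CPM at day 0 (13.3-fold, edgeR adjusted p = 1.66e-11), and the Col4a2 fold was 15.7. The order of the group means was the same for both genes, WT, Sam68 KO and Quaking KO at day 10, then Sam68 KO, WT and Quaking KO at day 0, and only WT and Quaking KO at day 0 overlapped in that order.

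**Figure D1:**
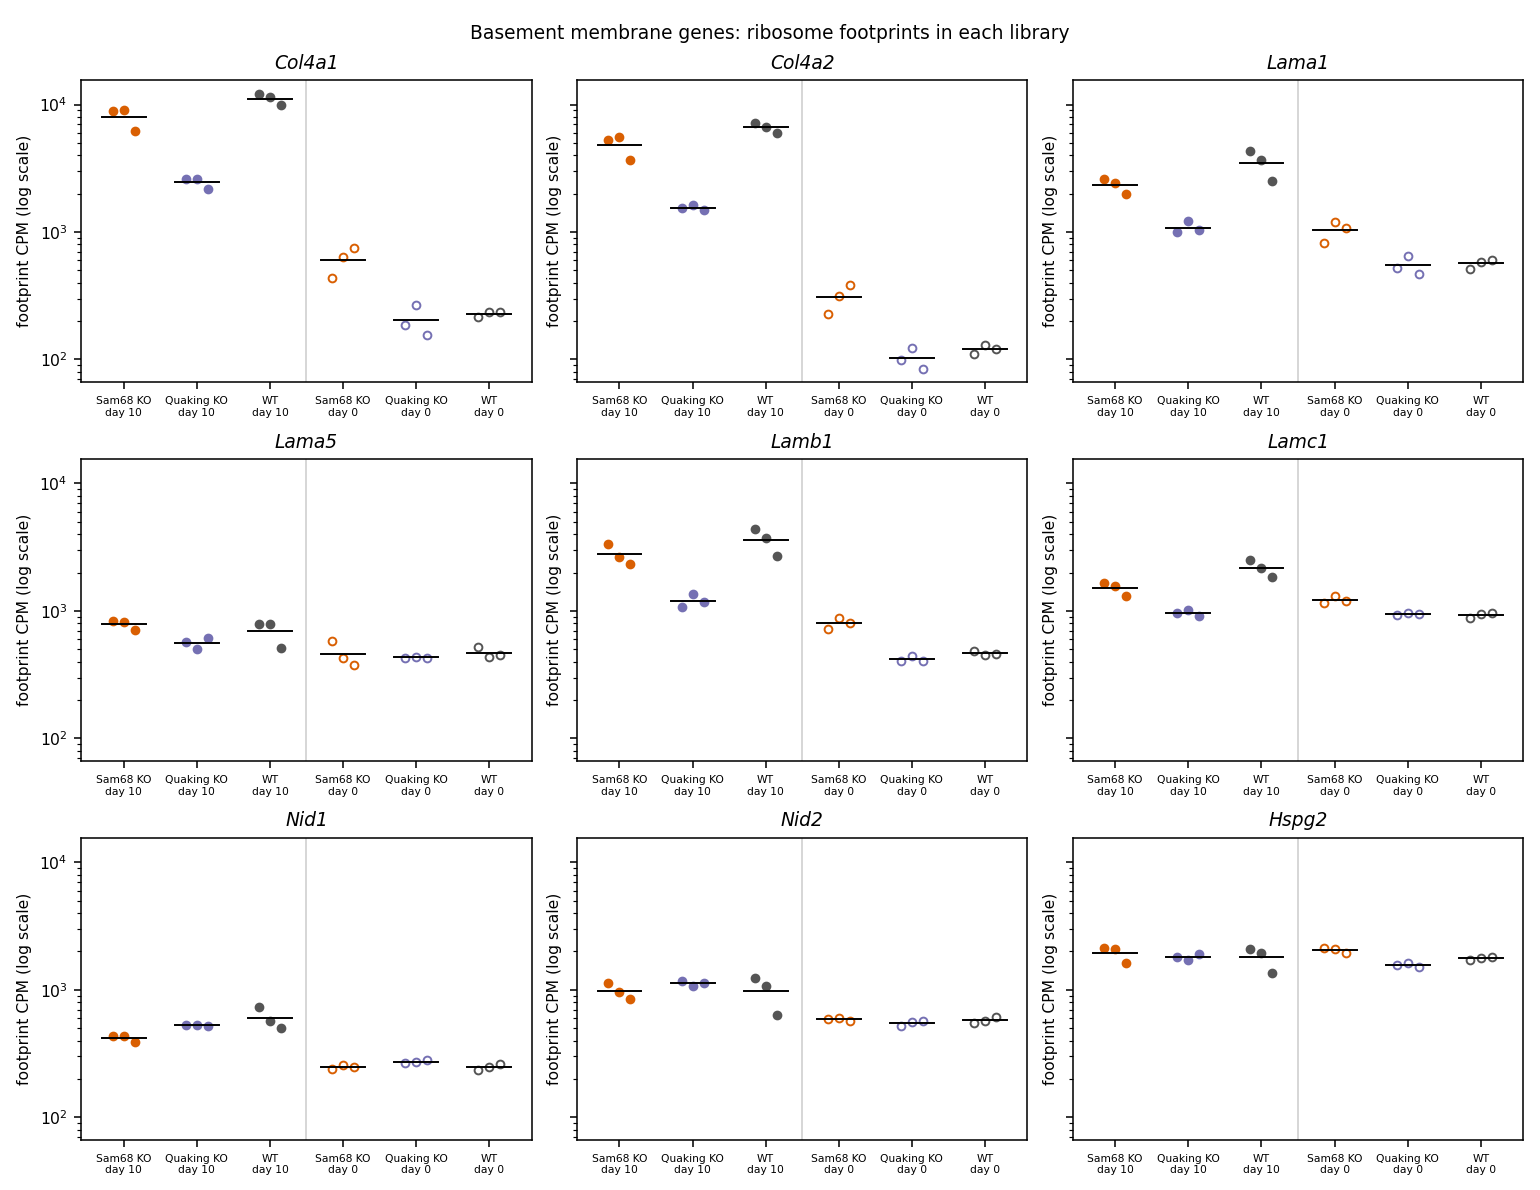
Footprint CPM (TMM-scaled, log axis shared by all panels) of the 9 genes in each of 18 libraries; points are libraries, black lines are group means of 3, filled points are day 10 and open points day 0. Col4a1 in WT lies between 9908 and 12094 CPM at day 10, against 216 to 234 CPM at day 0, while Hspg2 lies between 1358 and 2141 CPM in all 18 libraries.

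The laminin chains rose less than collagen IV, and unequally. Lama1, the alpha chain of the laminin that dominates in early embryonic basement membranes (ENSMUSG00000032796, chr17:67697127-67822645), measured 4343, 3689 and 2490.4 CPM in WT at day 10, against 513, 585 and 603 CPM at day 0 (6.19-fold, log2 fold change 2.63, SE 0.19, edgeR adjusted p = 6.71e-11). WT replicate 3, one of the libraries led by few features, gave the lowest day 10 value, which was still above all day 0 values. Lamb1, the beta chain of many laminins (ENSMUSG00000002900, chr12:31265146-31329644), measured 4394, 3758 and 2695 CPM in WT at day 10, against 481, 449.9 and 461 CPM at day 0 (7.80-fold, edgeR adjusted p = 7.65e-14). Lamc1, the gamma chain that most laminins share (ENSMUSG00000026478, chr1:153218922-153332786), measured 2523, 2156 and 1844 CPM, against 885, 948 and 969 CPM (2.33-fold, edgeR adjusted p = 4.56e-09). The day 10 and day 0 libraries of WT did not overlap for any of these chains.

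In the KO lines Lama1 and Lamb1 rose by smaller folds, and Lamc1 did so in Sam68 KO. In Quaking KO, Lama1 rose 1.98-fold and Lamb1 2.87-fold (edgeR adjusted p = 5.49e-05 and 5.35e-09). Lamc1 measured 963, 1011 and 913 CPM at day 10, against 923, 962 and 950.2 CPM at day 0 in Quaking KO. These values overlapped, and the difference did not pass the test (log2 fold change 0.026, 95% interval -0.22 to 0.27, edgeR adjusted p = 0.865). In Sam68 KO, Lama1 rose 2.26-fold and Lamb1 3.48-fold (edgeR adjusted p = 6.34e-06 and 2.84e-10). Lamc1 was called 1.24-fold higher there (edgeR adjusted p = 0.0288), with overlapping libraries, 1655, 1579 and 1303 CPM at day 10 against 1148, 1319 and 1203 CPM at day 0; the call was lost without any one of 5 of the 6 libraries (edgeR adjusted p = 0.0615 to 0.494) and with no filter on low counts (0.902).

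Lama5, the alpha chain of laminins found widely in later embryonic and adult basement membranes (ENSMUSG00000015647, chr2:180176373-180225904), rose least of the laminin chains in WT. It measured 791, 790.0 and 512 CPM in WT at day 10, against 521, 434 and 454 CPM at day 0 (1.49-fold, edgeR adjusted p = 0.00293); WT replicate 3 at day 10 fell within the day 0 range. The call was lost without WT day 10 replicate 1 (adjusted p = 0.0893) and with no filter on low counts (0.182). In Sam68 KO the fold was 1.70 (edgeR adjusted p = 1.98e-04). In Quaking KO it was 1.30, with 571, 503 and 612 CPM at day 10 against 430.1, 438 and 424 CPM at day 0 (edgeR adjusted p = 0.0393). That last call lay close to the threshold and was lost in 9 of 14 alternatives, among them RLE scaling (adjusted p = 0.0525) and DESeq2 (0.0618).

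The nidogens, glycoproteins that bridge laminin and collagen IV, rose in all lines. Nid1 (ENSMUSG00000005397, chr13:13437602-13512275) measured 728, 570.5 and 503 CPM in WT at day 10, against 234, 247 and 261 CPM at day 0 (2.44-fold, edgeR adjusted p = 2.89e-09). Its day 10 over day 0 folds were 1.92 in Quaking KO and 1.69 in Sam68 KO (edgeR adjusted p = 4.33e-07 and 1.01e-05). In each line no library of one day reached the range of the other day. Nid2 (ENSMUSG00000021806, chr14:19751257-19811787) measured 1231, 1064 and 634 CPM in WT at day 10, against 550.2, 569 and 609 CPM at day 0 (1.70-fold, edgeR adjusted p = 1.91e-04). It rose 2.06-fold in Quaking KO and 1.67-fold in Sam68 KO (edgeR adjusted p = 4.30e-06 and 2.71e-04).

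Hspg2, the core protein of perlecan, a heparan sulfate proteoglycan (ENSMUSG00000028763, chr4:137468751-137570630), kept a narrow range of levels. It measured 2096, 1940.2 and 1358 CPM in WT at day 10, against 1712, 1784 and 1798 CPM at day 0, with the day 0 values inside the day 10 range. The log2 fold change was 0.029 (95% interval -0.25 to 0.30, edgeR adjusted p = 0.861), so a change of more than 1.23-fold upward lies outside the interval. The interval was -0.34 to 0.21 in Sam68 KO and -0.072 to 0.48 in Quaking KO. In Quaking KO all day 10 values, 1805, 1707 and 1921 CPM, lay above the day 0 values, 1578, 1637 and 1504 CPM, but the difference did not pass the test (edgeR adjusted p = 0.188); it did in the fit of only these 6 libraries (0.0483) and without the 3 libraries led by few features (0.0419). Without those 3 libraries Hspg2 was also called higher in Sam68 KO than in Quaking KO at day 0 (log2 fold change 0.39, edgeR adjusted p = 0.0132).

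Counted together, 8 of the 9 genes were called higher at day 10 in WT, 7 in Quaking KO and 8 in Sam68 KO, and none was called lower (edgeR quasi-likelihood test with Benjamini-Hochberg adjustment over 13701 features, threshold 0.05). Over all features, 34.9% were called higher and 30.1% lower in WT, 34.7% and 29.4% in Quaking KO, and 34.9% and 30.5% in Sam68 KO. The median log2 fold change of the 9 was 1.28 in WT, 0.99 in Quaking KO and 0.77 in Sam68 KO, beside 0.10, 0.11 and 0.11 over all features in the same lines. An additive model of day, line and pool assumes 1 day effect for all lines and 1 line effect at both days. It has as many terms as there are groups, so it takes up any line by day difference as a pool effect. The assumption therefore cannot be checked here. By construction its day effect is the WT change plus the Sam68 KO change minus the Quaking KO change. That single value stands for every line, and a larger rise in Quaking KO makes it smaller. Under this model Nid2 was no longer called (0.47 on the log2 scale, edgeR adjusted p = 0.185).

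**Figure D2:**
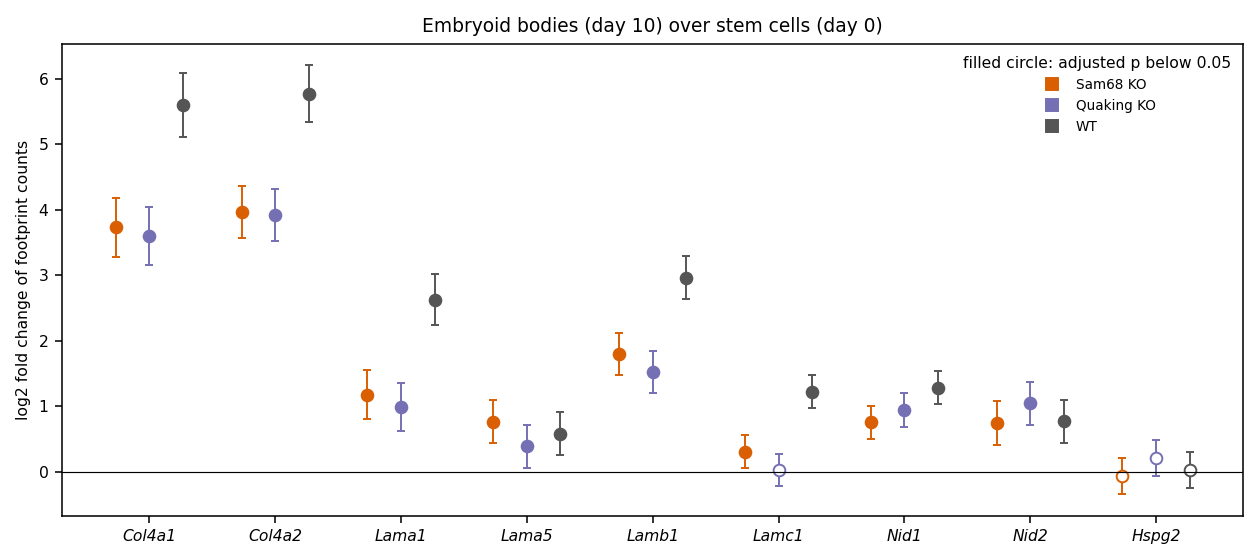
Log2 fold change of footprint counts, day 10 over day 0, for each gene in Sam68 KO, Quaking KO and WT; bars are 95% intervals from the edgeR fit and filled circles have an adjusted p below 0.05. WT lies highest for Col4a1 (5.61), Col4a2 (5.78), Lama1 (2.63), Lamb1 (2.96) and Lamc1 (1.22).

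Quaking KO embryoid bodies had fewer footprints than WT of collagen IV and of the Lama1, Lamb1 and Lamc1 chains, while Lama5, the nidogens and perlecan did not pass the test. At day 10, Col4a1 measured 2611, 2581 and 2193 CPM in Quaking KO, against 12094, 11364 and 9908 CPM in WT. All 3 Quaking KO libraries lay far below all 3 WT libraries. In the fit Col4a1 was 4.52-fold lower (log2 fold change -2.18, SE 0.20, edgeR adjusted p = 1.88e-07). Col4a2 measured 1555, 1613 and 1489 CPM in Quaking KO, against 7109.9, 6708 and 6029 CPM in WT (4.26-fold lower, edgeR adjusted p = 1.35e-08).

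Lama1 measured 991, 1218 and 1035 CPM in Quaking KO at day 10, against 4343, 3689 and 2490.4 CPM in WT (3.25-fold lower, edgeR adjusted p = 4.25e-07). Lamb1 measured 1072, 1351 and 1170.1 CPM in Quaking KO, against 4394, 3758 and 2695 CPM in WT (3.02-fold lower, edgeR adjusted p = 3.39e-08). For Lamc1 the fall was 2.26-fold (edgeR adjusted p = 1.01e-07), and the groups did not overlap for any of these chains. Lama5 measured 571, 503 and 612 CPM in Quaking KO, against 791, 790.0 and 512 CPM in WT, and WT replicate 3 lay among the Quaking KO values (log2 fold change -0.32, 95% interval -0.65 to 0.011, edgeR adjusted p = 0.155). Without that WT library Lama5 was called lower (-0.51, edgeR adjusted p = 0.00964).

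Nid1 and Nid2 overlapped between Quaking KO and WT at day 10 and did not pass the test. Nid1 measured 527, 531 and 519.7 CPM in Quaking KO, against 728, 570.5 and 503 CPM in WT (95% interval of the log2 fold change -0.45 to 0.059, edgeR adjusted p = 0.269). Nid2 measured 1169.6, 1078 and 1129 CPM in Quaking KO, against 1231, 1064 and 634 CPM in WT (-0.13 to 0.53, edgeR adjusted p = 0.401). The interval for Hspg2 was -0.27 to 0.28. In all, 5 of the 9 genes were called lower and 0 higher in Quaking KO at day 10, beside 12.8% of all features called lower and 11.1% higher. These 5 calls held in each of the 13 alternatives run. The compared libraries came from pools MIX_3 and MIX_2, so genotype and pool cannot be told apart.

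Before differentiation Quaking KO and WT cells, which share a pool, showed no difference that passed the test. None of the 9 was called at day 0 by edgeR, by DESeq2 or at an unadjusted p below 0.05, beside 0.365% of all features called, all lower. The log2 fold changes ran from -0.24 for Col4a2 (95% interval -0.60 to 0.12) to 0.14 for Nid1 (-0.11 to 0.40). Lamb1, Nid1 and Hspg2 had no overlap between the lines. Nid1 measured 268, 270.4 and 282 CPM in Quaking KO against 234, 247 and 261 CPM in WT, and Hspg2 1578, 1637 and 1504 CPM against 1712, 1784 and 1798 CPM. The share of all features without overlap was not computed, so no difference is read from this separation.

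Sam68 KO stem cells had more collagen IV, Lama1 and Lamb1 footprints than WT stem cells. Col4a1 measured 438, 631 and 743 CPM in Sam68 KO stem cells, against 216, 234 and 234 CPM in WT (2.65-fold higher, log2 fold change 1.41, SE 0.20, edgeR adjusted p = 5.24e-04). Col4a2 measured 226, 316 and 386 CPM in Sam68 KO, against 110.4, 131 and 121 CPM in WT (2.57-fold higher, edgeR adjusted p = 8.06e-05). All Sam68 KO libraries lay above all WT libraries for both genes.

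Lama1 measured 826, 1207 and 1069.6 CPM in Sam68 KO at day 0, against 513, 585 and 603 CPM in WT (1.82-fold higher, edgeR adjusted p = 0.0122). Lamb1 measured 722, 879 and 799 CPM in Sam68 KO, against 481, 449.9 and 461 CPM in WT (1.72-fold higher, edgeR adjusted p = 0.00525). Lamc1 measured 1148, 1319 and 1203 CPM, against 885, 948 and 969 CPM, with no overlap, but did not pass the test (log2 fold change 0.39, 95% interval 0.14 to 0.64, edgeR adjusted p = 0.149; DESeq2 adjusted p = 0.0284). For Lama5, Nid1 and Nid2 the log2 fold changes were -0.027, 0.007 and 0.027.

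Thus 4 of the 9 were called higher and 0 lower in Sam68 KO at day 0, beside 0.620% of all features called higher. Without WT day 0 replicate 2 the count was 2, as Lama1 (edgeR adjusted p = 0.0652) and Lamb1 (0.0517) lost their calls; Lama1 also lost its call without WT replicate 1 (0.0858) or Sam68 KO replicates 2 (0.0829) or 3 (0.0803). Sam68 KO and WT at day 0 came from different pools, so genotype and pool cannot be told apart. The additive model with the pool term uses no Sam68 KO library of day 0 for its line effect, so it does not bear on this difference. Sam68 KO was also higher than Quaking KO at day 0 for the same 4 genes, by 0.92 (Lama1) to 1.60 (Col4a2) on the log2 scale, beside 2.55% of all features called higher (76.9% of all calls, 63.0% under RLE scaling and 60.3% under upper quartile scaling). These comparisons share the Sam68 KO libraries, and Col4a1 lost the second call when those 2 groups alone were fitted (edgeR adjusted p = 0.0627).

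**Figure D3:**
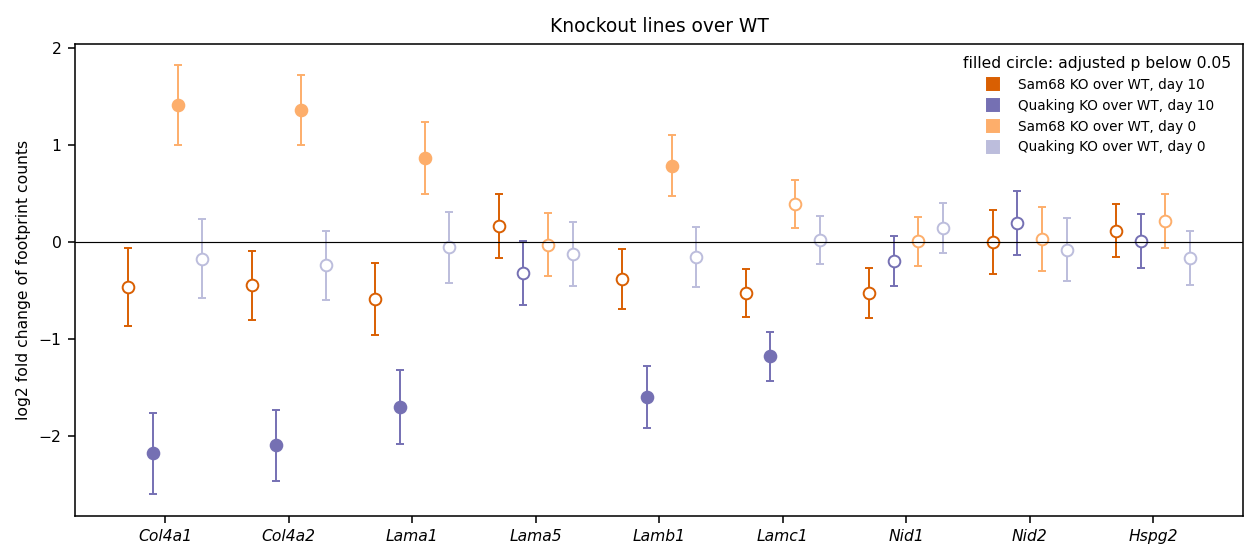
Log2 fold change of footprint counts, Sam68 KO or Quaking KO over WT, at day 10 and day 0, for each gene; bars are 95% intervals from the edgeR fit and filled circles have an adjusted p below 0.05. The filled points are 5 genes below 0 for Quaking KO at day 10 (-2.18 to -1.18) and 4 genes above 0 for Sam68 KO at day 0 (0.79 to 1.41).

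Between Sam68 KO and WT embryoid bodies none of the 9 genes passed the threshold. Col4a1 measured 8910.2, 8992 and 6230.1 CPM in Sam68 KO, against 12094, 11364 and 9908 CPM in WT, with no overlap (log2 fold change -0.47, 95% interval -0.87 to -0.065, edgeR adjusted p = 0.616). Lamc1 measured 1655, 1579 and 1303 CPM in Sam68 KO, against 2523, 2156 and 1844 CPM in WT (log2 fold change -0.52, edgeR adjusted p = 0.0824). Nid1 measured 437, 434 and 386 CPM in Sam68 KO, against 728, 570.5 and 503 CPM in WT (log2 fold change -0.52, edgeR adjusted p = 0.0944). The intervals before adjustment lay below 0 for 6 genes (Col4a1, Col4a2, Lama1, Lamb1, Lamc1 and Nid1). How many of all features had such intervals was not computed, so no shared decrease is read from this count.

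Of the 9 genes, 0 were called by edgeR, beside 0.0730% of all features called higher and 0.102% lower. DESeq2 called 2 lower, Lamc1 and Nid1, beside 78 features called in either direction. These 78 are out of 33167 features with any count, including any that DESeq2 left without an adjusted p, whereas the edgeR shares are over 13701. In the edgeR fit 6 of the 9 had an unadjusted p below 0.05. The share of all features at that unadjusted level was not computed, so no difference is read from this count. Without WT day 10 replicate 3, edgeR called 3 lower: Lama1 (adjusted p = 0.0199), Lamc1 (0.0113) and Nid1 (0.0117). The additive model with the pool term gave Sam68 KO as higher than WT for 5 genes, but its line effect is the sum of Sam68 KO against Quaking KO at day 10 and Quaking KO against WT at day 0 and uses no WT library of day 10 (Col4a1 1.54, Col4a2 1.40, Lama1 1.06, Lamb1 1.07 and Lamc1 0.67, log2 scale). Pool and genotype cannot be told apart at day 10.

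Within pool MIX_3, Sam68 KO embryoid bodies had more collagen IV and laminin footprints than Quaking KO embryoid bodies. Col4a1 measured 8910.2, 8992 and 6230.1 CPM in Sam68 KO, against 2611, 2581 and 2193 CPM in Quaking KO, a difference of 3.27-fold (log2 fold change 1.71, SE 0.20, edgeR adjusted p = 2.99e-06). Col4a2 was 3.12-fold higher, Lama1 2.16-fold, Lamb1 2.32-fold and Lamc1 1.57-fold (edgeR adjusted p = 2.92e-07, 7.21e-05, 1.51e-06 and 2.39e-04). The libraries of the KO lines did not overlap for any of these genes, which is given without the share over all features. Lama5 was called 1.39-fold higher (edgeR adjusted p = 0.0308), a call lost in 8 of 13 alternatives, among them RLE scaling (0.0926) and DESeq2 (0.0946). Nid1 ran the other way, 437, 434 and 386 CPM in Sam68 KO against 527, 531 and 519.7 CPM in Quaking KO, without overlap (log2 fold change -0.33, edgeR adjusted p = 0.0571). Nid1 was called lower under RLE scaling (0.0141), under upper quartile scaling (0.0312) and by DESeq2 (0.00149).

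In this comparison 6 of the 9 were called higher and 0 lower, beside 13.0% and 10.6% of all features. Of all called features, 55.1% were higher in Sam68 KO, and 44.5% under RLE scaling, which also left 5 of the 9 higher and 1 lower. The libraries of Sam68 KO replicates 2 and 3 were led by few features; without them and WT replicate 3 the log2 fold changes were 1.87 for Col4a1 and 0.80 for Lamc1, resting on 1 Sam68 KO library that is assumed to vary like the other groups.

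Whether the rise with differentiation itself differed between lines was tested as an interaction. In Quaking KO the day 10 over day 0 change was smaller than in WT for Col4a1 (difference of log2 fold changes -2.00, SE 0.27, edgeR adjusted p = 8.91e-05), Col4a2 (-1.85), Lama1 (-1.64), Lamb1 (-1.44) and Lamc1 (-1.19). The remaining 4 did not pass, with intervals of -0.66 to 0.27 for Lama5, -0.70 to 0.02 for Nid1, -0.19 to 0.74 for Nid2 and -0.21 to 0.56 for Hspg2. Over all features 3.76% were called in this direction and 5.12% in the other. In Sam68 KO these 5 genes also rose less than in WT, with differences of -1.87 (Col4a1) to -0.91 (Lamc1), beside 0.299% of all features in this direction and 0.131% in the other; the WT libraries are common to both interactions.

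The Sam68 KO interaction rested on few libraries for the laminin chains. Its count was 3 without WT day 10 replicate 1 or Sam68 KO day 10 replicate 3, and 2, Col4a1 and Col4a2, without Sam68 KO day 10 replicate 2. Fitted on the 12 libraries of these groups alone it was 3. Without the 3 libraries led by few features Col4a1 was at -1.77 (edgeR adjusted p = 0.126). The mean levels behind the terms differ: the Sam68 KO stem cells already stood above WT for Col4a1, Col4a2, Lama1 and Lamb1, whereas the Quaking KO embryoid bodies stood below WT. The Sam68 KO embryoid bodies also averaged below WT for these genes and Lamc1, without a call. Their log2 fold changes ran from -0.59 (Lama1) to -0.38 (Lamb1), so both days enter the Sam68 KO term. Each interaction spans all 3 pools, so pool cannot be told apart from it.

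Ratios of counts within a library do not depend on scaling between libraries; gene lengths were not used, so only their change between libraries is read. The ratio of Col4a1 to Col4a2 was 1.47 to 1.70 over the 9 day 10 libraries, against 1.79 to 2.16 over the 9 day 0 libraries, without overlap. The ratio of Lamb1 to Lamc1 was 1.11 to 2.02 at day 10, against 0.429 to 0.666 at day 0, again without overlap. At day 10 it averaged 1.84 ± 0.170 in Sam68 KO, 1.24 ± 0.116 in Quaking KO and 1.65 ± 0.162 in WT (SD, n = 3), with every Quaking KO library below the other 6.

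The ratio of the alpha chains was separate in each line at day 10. Lama1 over Lama5 was 2.98 ± 0.181 in Sam68 KO, 1.95 ± 0.411 in Quaking KO and 5.01 ± 0.431 in WT at day 10 (SD, n = 3), and the ranges of the 3 lines were separate. At day 0 it was 2.37 ± 0.824 in Sam68 KO, 1.27 ± 0.191 in Quaking KO and 1.22 ± 0.206 in WT, and Sam68 KO replicate 1, at 1.42, lay within the Quaking KO range. Nid1 over Lamc1 at day 10 was 0.278 ± 0.0165 in Sam68 KO, 0.547 ± 0.0218 in Quaking KO and 0.275 ± 0.0121 in WT. The lowest Quaking KO library lay at 0.526 and the highest of the other day 10 libraries at 0.296. No test was made of these ratios.

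**Figure D4:**
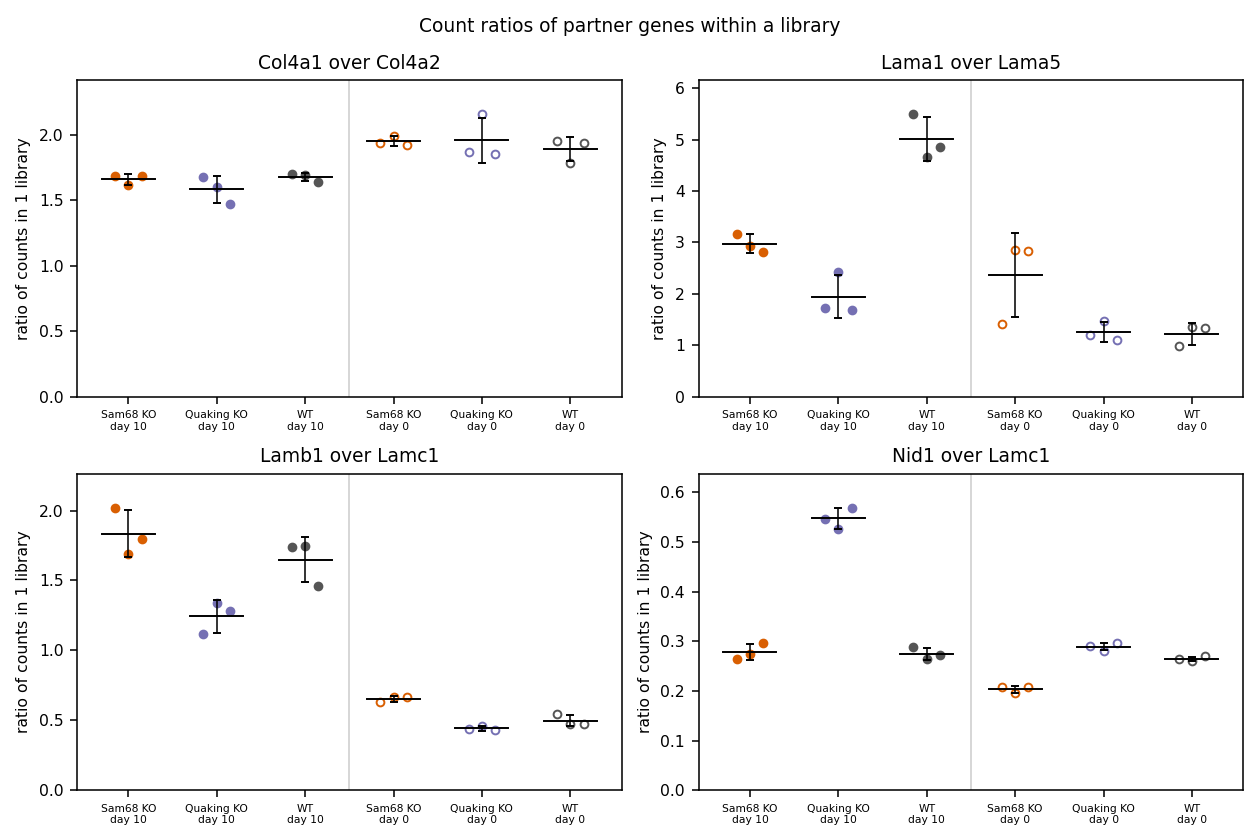
Ratio of footprint counts of 2 genes in the same library (linear axes from 0), for 4 pairs; points are libraries, black lines with bars are means and SD of 3 libraries. Nid1 over Lamc1 stands highest in Quaking KO at day 10 (0.547), and Lama1 over Lama5 in WT at day 10 (5.01).

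RefSeq promoter windows were available for 6 of the 9 genes (Col4a1, Col4a2, Lama5, Lamb1, Nid1 and Hspg2) and were searched on both strands for 5 short motifs. All 6 held a GC box (GGGCGG), as did 35.7% of 32851 promoter windows of this length, and all 6 were richer in G and C (63.7% to 74.0%) than the median window (52.7%). The only GC box of Col4a1 lies in the bases shared with Col4a2, so this 1 site counts for both windows. The CCAAT box was present in 4 of the 6 and in 37.4% of all windows; Lama5 and Hspg2 had none. None of the 6 held AGATAA, bound by factors of the GATA family and present in 11.2% of all windows. None held the SOX family motif ACAAT, present in 31.0% of all windows, or TATAAA of the TATA box, present in 13.6%. The windows of Lamb1, which changed with day and line, and of Hspg2, which was not called in any of the 11 comparisons of the 18-library fit, are shown with GC and CCAAT boxes in capitals, 5′ to 3′ on the plus strand:
Lamb1, chr12:31265043-31265342, plus strand: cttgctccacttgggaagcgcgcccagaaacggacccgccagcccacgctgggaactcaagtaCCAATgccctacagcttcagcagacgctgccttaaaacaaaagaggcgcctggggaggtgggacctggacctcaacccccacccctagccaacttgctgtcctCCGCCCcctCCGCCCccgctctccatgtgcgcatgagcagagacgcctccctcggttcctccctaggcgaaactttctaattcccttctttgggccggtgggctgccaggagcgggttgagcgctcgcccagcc
Hspg2, chr4:137468553-137468852, plus strand: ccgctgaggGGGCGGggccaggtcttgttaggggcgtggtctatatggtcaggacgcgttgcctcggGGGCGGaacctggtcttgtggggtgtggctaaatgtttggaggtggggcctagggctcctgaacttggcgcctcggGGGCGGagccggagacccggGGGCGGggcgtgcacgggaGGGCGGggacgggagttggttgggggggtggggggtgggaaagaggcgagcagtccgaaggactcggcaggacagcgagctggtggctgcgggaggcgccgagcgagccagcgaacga

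Among 10577 other features with at least 10 CPM in their highest group, the one whose log2 CPM followed the mean standardised profile of the 9 genes most closely over the 18 libraries was ENSMUSG00000016256.10 (Pearson r = 0.982, Spearman rho = 0.967). It averaged 376, 203 and 398 CPM in Sam68 KO, Quaking KO and WT at day 10, against 88.5, 63.8 and 73.3 CPM in the same lines at day 0. Over the 9 day 10 libraries alone it was ENSMUSG00000070436.12 (r = 0.990, rho = 0.983), with 3030.0, 2262 and 3386 CPM at day 10, against 383, 226 and 240.0 CPM at day 0 in the same order. These correlations describe libraries that share line, day, pool and depth, and neither ID was paired with a name.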

How the data were processed

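The authors deposited 1 table of raw counts per library, whole numbers for 51826 Ensembl IDs. Per the labels' protocols, protected fragments were size-selected by gel (28 to 32 nt). The builds were mm10 and GRCm38 and the tools STAR 2.5.3a, Bowtie2 and bcl2fastq 2.17.1.14, per the submitters' processing notes; the counting program, annotation release and strand setting were not given in the sources used here. Groups and replicates came from titles and pools from descriptions.

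Counts were tested with edgeR 4.0.16 (R 4.3.3): TMM scaling, edgeR's filter on low counts by group (13701 features, at least 99.4% of each library's counts), 1 quasi-likelihood fit of 6 group means over 18 libraries, and Benjamini-Hochberg adjustment over all features tested, two-sided. Of 11 comparisons, 2 were interactions, and the common biological coefficient of variation was 0.229. The method was tested on simulated data with a common spread for all features and the same mean profile in every library, apart from planted changes. That simulation did not cover libraries led by few features. CPM are TMM-scaled. DESeq2 1.42.0, other scalings, no filter, fits of fewer groups, blocks by replicate number or pool, and left-out libraries were alternatives. Replicate libraries differed beyond sampling noise (lowest chi-square over its degrees of freedom 4.82). Total counts were 988210 to 10646768, a measure of counting precision only, since no molecular identifiers are named in the labels.

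The 9 genes and the alternatives were chosen with earlier results of these data known. All 9 genes were named; the features of most similar profile were the top by correlation of log2 CPM among those with at least 10 CPM in their highest group. The RefSeq table used here holds no Ensembl ID, so symbols other than the 9 in the selection rule were not matched, and lists of related genes and cell type markers, fixed by symbol, were not examined. Levels per coding length were not computed.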

Additional observations from a re-analysis of the deposited data

Results flagged for a closer look

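For 5 of the 9 genes the day 10 over day 0 change differed between a KO line and WT by the interaction term of the edgeR fit, in each KO line. In Quaking KO against WT the differences of log2 fold changes were -2.00 for Col4a1 (adjusted p = 8.91e-05), -1.85 for Col4a2 (3.00e-05), -1.64 for Lama1 (1.67e-04), -1.44 for Lamb1 (6.58e-05) and -1.19 for Lamc1 (4.82e-05). In Sam68 KO against WT they were -1.87 for Col4a1 (edgeR adjusted p = 0.00282), -1.81 for Col4a2 (0.00124), -1.45 for Lama1 (0.00776), -1.16 for Lamb1 (0.00901) and -0.91 for Lamc1 (0.0118). Both sets use the same WT libraries, and the groups lie in different pools. Over all features, the Quaking KO term was called negative in 3.76% and positive in 5.12%. The Sam68 KO term was called negative in 0.299% and positive in 0.131%. When single libraries were left out, the Quaking KO count stayed at 5, whereas the Sam68 KO count ranged from 2 to 5. With only the compared groups fitted, the Sam68 KO count was 3, so it is the less firm of these results.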

How the results depend on the processing

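The additive model's single day effect counts once per line among the alternatives below, and its Sam68 KO line effect once per day. Over the 9 genes and 11 comparisons, 1440 alternatives to 99 results were computed. Of these, 1370 kept the side of the threshold, 46 lost a call and 19 gained one. A further 5 turned the direction of a difference that was called in the main fit or in the alternative. Turns of direction between 2 uncalled results are counted among the 1370. An example is Hspg2 in WT, day 10 against day 0 (log2 fold change 0.029, lowest alternative -0.24). That lowest value is the additive model's day effect, which is not a change in WT alone. Those 5 were Sam68 KO against WT at day 10 with pool as a block in the additive model, with log2 differences of 1.54 (Col4a1), 1.40 (Col4a2), 1.06 (Lama1), 1.07 (Lamb1) and 0.67 (Lamc1) and a count of 5 called in place of 0; by construction that effect uses no WT library of day 10. For that comparison DESeq2 called 2; the cause was not tested. The Sam68 KO interaction gave 3 calls in place of 5 when only the compared groups were fitted, which uses fewer samples. Leaving out 1 library at a time gave 7 to 8 calls for WT day 10 against day 0, 6 to 7 for Quaking KO, 7 to 8 for Sam68 KO, 0 to 0 for Quaking KO against WT at day 0, 5 to 6 at day 10, 2 to 4 for Sam68 KO against WT at day 0, 0 to 3 at day 10, 4 to 4 for Sam68 KO against Quaking KO at day 0, 5 to 6 at day 10, 5 to 5 for the Quaking KO interaction and 2 to 5 for the Sam68 KO interaction. With replicate number as a block every count of calls was as without it (8, 7 and 8 for the days, 5 for Quaking KO against WT at day 10). Of 45 correlations between same-numbered libraries, 5 passed 0.1 (-0.17 to 0.40). The highest, 0.40 and 0.23, were between WT and Sam68 KO at day 10 (replicates 1 and 3). Differently numbered libraries were not correlated for reference, so this does not settle whether the numbers pair the samples. The comparison of levels between genes per coding length was not run, as lengths were not used here. After scaling, 3 counts were worth 7.05 CPM in WT day 10 replicate 3 and 0.233 to 2.78 CPM in the other libraries, below every value of the 9 genes.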

Other observations

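Further ratios of counts within a library are given as values, with no test and not per length. Lama5 over Lamc1 at day 10 was 0.519 ± 0.0195 in Sam68 KO, 0.587 ± 0.0866 in Quaking KO and 0.319 ± 0.0446 in WT (SD, n = 3), and the WT libraries lay below those of both KO lines. Nid1 over Nid2 at day 10 was 0.431 ± 0.0386 in Sam68 KO, 0.468 ± 0.0223 in Quaking KO and 0.640 ± 0.135 in WT. WT replicate 3 had the highest Nid1 over Nid2 ratio of all (0.793), and it is among the libraries in which few features took most of the counts.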
